A study of Mus musculus with 143 samples.

Results

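Of 143 sequenced microglia from the early postnatal cerebellum, 28 were classed as mitotic. They were chosen by their own counts: a cell was mitotic when 4 or more of Mki67, Top2a, Cdk1, Cenpe, Birc5, Nusap1, Ccna2 and Pbk reached 10 CPM (counts per 1000000 gene counts of the cell), and it was a comparison cell when at most 1 of the 8 did. The comparison cells numbered 97, and the 18 cells with 2 or 3 of the 8 genes were left out of both classes. Mitotic cells made up 19.6% of all cells (exact 95% interval 13.4 to 27.04%), with 21 of 95 on plate 1 (22.1%, 14.2 to 31.8%) and 7 of 48 on plate 2 (14.6%, 6.07 to 27.8%). These intervals cover counting error only.

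All cells of both classes were wild-type C57BL6N microglia taken at postnatal day 7. Cerebella of male animals had been combined in 1 pool, and single live cells that were CD45low, CD11b+, Gpnmb+ and Clec7a+ at the protein level had been sorted into 2 plates for Smart-seq2, which amplifies near full-length cDNA of each cell. The Gpnmb and Clec7a gate enriches for PAM, the proliferative-region-associated microglia of developing white matter, whose genes largely match those of the disease-associated microglia (DAM) of injured brain. The name of the pooled libraries carries the word adult, against an age of 7 days in the other labels. Mitotic and comparison cells therefore share animals, gate, sort and plates, and cells of 1 pool are not replicates of a condition: every value below describes these cells, and none was tested. All cells had passed the submitters' 3 quality criteria. Whether any well held more than 1 cell was not tested.

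Microglia are the resident macrophages of the brain, and in the first postnatal weeks they divide locally while they clear dying cells and myelin debris. A dividing cell copies its DNA in S phase with enzymes that supply nucleotides and replicate chromatin. It then makes the cyclins, kinases, kinesins and spindle proteins of G2 and mitosis, many of which are controlled at their promoters by the CHR element (TTTGAA) together with CCAAT boxes.

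Of the 6 rule genes in the RefSeq promoter table (GRCm38.p6), Mki67, Top2a and Cdk1 held both elements in the 250 bases before the start site. The promoters of Cdk1, the kinase that starts mitosis, and Top2a, the topoisomerase that untangles sister chromatids, are shown because they chose the cells. That of Cdc20, an activator of the anaphase-promoting complex, stands for the mitotic genes the rule did not use, and that of Kpna2, a nuclear import receptor, for genes outside the cell cycle lists, among which it had the highest ratio of those read in at least 50% of the compared cells. Each is the 120 bases before the start site, printed 5′ to 3′ on the minus strand of the gene, with TTTGAA and CCAAT on either strand (TTCAAA and ATTGG as their reverse complements) in capitals.
Cdk1 (chr10:69352913-69353032): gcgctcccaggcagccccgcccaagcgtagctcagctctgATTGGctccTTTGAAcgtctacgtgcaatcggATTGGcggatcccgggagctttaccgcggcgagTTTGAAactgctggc
Top2a (chr11:99024190-99024309): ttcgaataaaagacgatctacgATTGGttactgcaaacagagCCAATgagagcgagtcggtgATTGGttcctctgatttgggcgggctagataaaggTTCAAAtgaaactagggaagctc
Cdc20 (chr4:118437344-118437463): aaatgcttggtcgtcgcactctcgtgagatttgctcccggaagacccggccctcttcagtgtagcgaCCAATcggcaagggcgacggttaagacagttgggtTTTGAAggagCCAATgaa
Kpna2 (chr11:106999526-106999645): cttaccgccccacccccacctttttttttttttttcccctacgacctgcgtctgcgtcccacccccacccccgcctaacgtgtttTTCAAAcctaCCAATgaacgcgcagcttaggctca
Among all 27025 promoters of the table, 18.3% held TTTGAA, 37.5% held CCAAT and 6.45% held both within 250 bases. Of the 202 promoters matched to the list of G2 and mitosis genes, 27.2% held TTTGAA, 60.9% held CCAAT and 19.3% held both. Of the 45 promoters matched to the list of S phase genes, 6 held TTTGAA, 29 (64.4%) held CCAAT and 5 held both. The higher CCAAT share was therefore not particular to G2 and mitosis genes. For genes outside the cell cycle that were higher in mitotic cells the share with both was 4.26% of 423 promoters, and for all compared genes outside the cell cycle it was 4.11% of 5593. A match describes the letters and is not evidence of binding.

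The 8 rule genes fixed the classes, and their levels are given as a description of what was chosen. Top2a had a median of 612 CPM over mitotic cells (lowest 0, highest 1311) and was read in 27 of 28, against 3 of 97 comparison cells with at most 41.9 CPM. For Mki67, the proliferation antigen that coats mitotic chromosomes, the mitotic median was 520 CPM (0 to 2137), and 2 comparison cells held a read. Pbk, a mitotic kinase, was read in 24 mitotic cells and in no comparison cell, so its pooled level of 240 CPM was at least 5580-fold higher, taking 3 counts over all comparison cells as the floor. Cdk1 was the rule gene most often read outside the mitotic class, in 12 of 97 cells and up to 250.3 CPM.

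**Figure D1:**
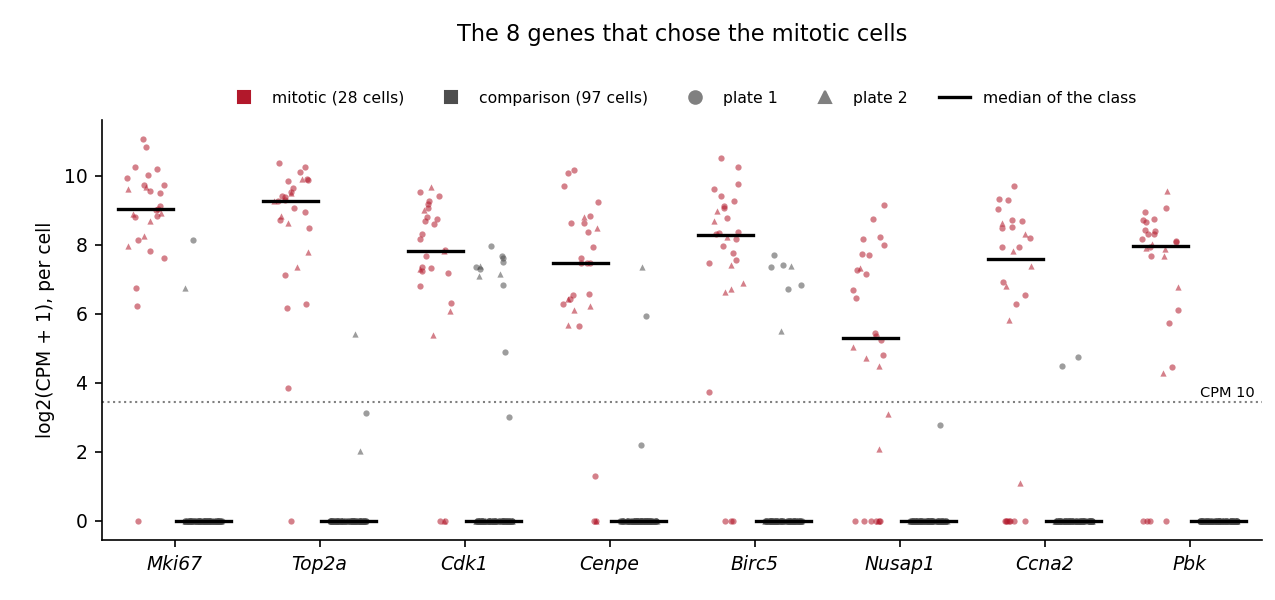
Level of each of the 8 rule genes in every mitotic and comparison cell, as log2(CPM + 1), with circles for plate 1, triangles for plate 2 and a bar at the median of the class. The dotted line is the 10 CPM limit of the rule, and the comparison medians are all at 0.

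Most mitotic cells lay well above the threshold. All 8 genes were at 10 CPM in 10 cells and 7 of them in another 10, while 4 cells had 6, 1 cell had 5 and 3 cells had 4. Just inside the limit, one cell with 4 genes read Mki67, Cdk1, Cenpe and Birc5 at 106.2 to 177 CPM and 4 genes of the S phase list at 10 CPM, and the other 2 cells with 4 rule genes had 43 and 44. Just outside it, the 2 cells with 3 genes had Top2a at 247 and 16.2 CPM and had 29 and 38 S phase genes at 10 CPM.

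Genes of division that the rule did not use were higher too, again a description, since the same cells were chosen on related genes. Prc1, which bundles the central spindle, was read in 23 mitotic cells (median 223 CPM) and 1 comparison cell, and Hmmr, a spindle-pole protein, in 22 and in none. Cyclin B1 (Ccnb1) had a median of 183 CPM and was read in 20 mitotic cells, against 2 comparison cells. Of 179 compared genes of the G2 and mitosis list 159 met the size rule upward, with a median log2 ratio of 3.03, and of 55 compared S phase genes 48 did, with a median of 2.49. Here and below a log2 ratio compares the summed counts of mitotic and comparison cells as pooled CPM + 1, and the size rule asks for a difference of at least 1 on that scale over both plates together, in the same direction on each plate.

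The name mitotic covers more than cells in mitosis. Ccnb1, Cdc20 and Plk1, which peak from late G2 to metaphase, were all at 10 CPM in 14 of the 28 cells, 1 or 2 of them were in 9, and none was in 5. Those 5 cells had 37 to 49 genes of the S phase list at 10 CPM. At least 6 S phase genes were at 10 CPM in 27 of 28 mitotic cells (96.4%) and in 53 of 97 comparison cells (54.6%), and at least 10 in 27 and in 26 (26.8%). RNA levels did not separate G2 from mitosis here, and the comparison class is not a class of resting cells.

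Mitotic cells had more gene counts relative to the spike-ins. ERCC transcripts had been added to each well, so gene counts per ERCC count rise with the amount of RNA captured from the cell. The median was 29.5 gene counts per ERCC count in mitotic cells (lowest 20.5, highest 48.05) and 22.7 in comparison cells (8.34 to 40.999), a ratio of 1.30. The ratio of medians was 1.24 on plate 1 and 1.35 on plate 2. On plate 1, 20 of 21 mitotic cells were above the comparison median, and on plate 2, 6 of 7 were. The ranges overlapped: 9 of 61 comparison cells on plate 1 and 6 of 36 on plate 2 exceeded the mitotic median of their plate. The difference also moved with the S phase genes of the comparison cells, whose median was 25.8 in the 53 cells with 6 or more of them at 10 CPM and 19.4 in the 29 cells with at most 3.

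Sequencing depth did not follow that difference. Gene counts per cell had a median of 739852 in mitotic cells (372188 to 968247) and 718735 in comparison cells (436333 to 1178529). Mitotic cells had a median of 3741 genes with at least 1 count (2802 to 4955), against 3010 (1552 to 4550). After each cell was thinned to 200000 gene counts the medians were 3600 and 2880, so the ratio was 1.25 in place of 1.24. Rn45s, the gene row of the 45S ribosomal RNA precursor, took 8.63% of gene counts in mitotic cells at the median and 9.38% in comparison cells. Whether these counts came from precursor or mature ribosomal RNA was not tested. That direction was not shared by the plates: the medians were 8.16 and 8.07% on plate 1, and 10.7 and 11.5% on plate 2.

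**Figure D2:**
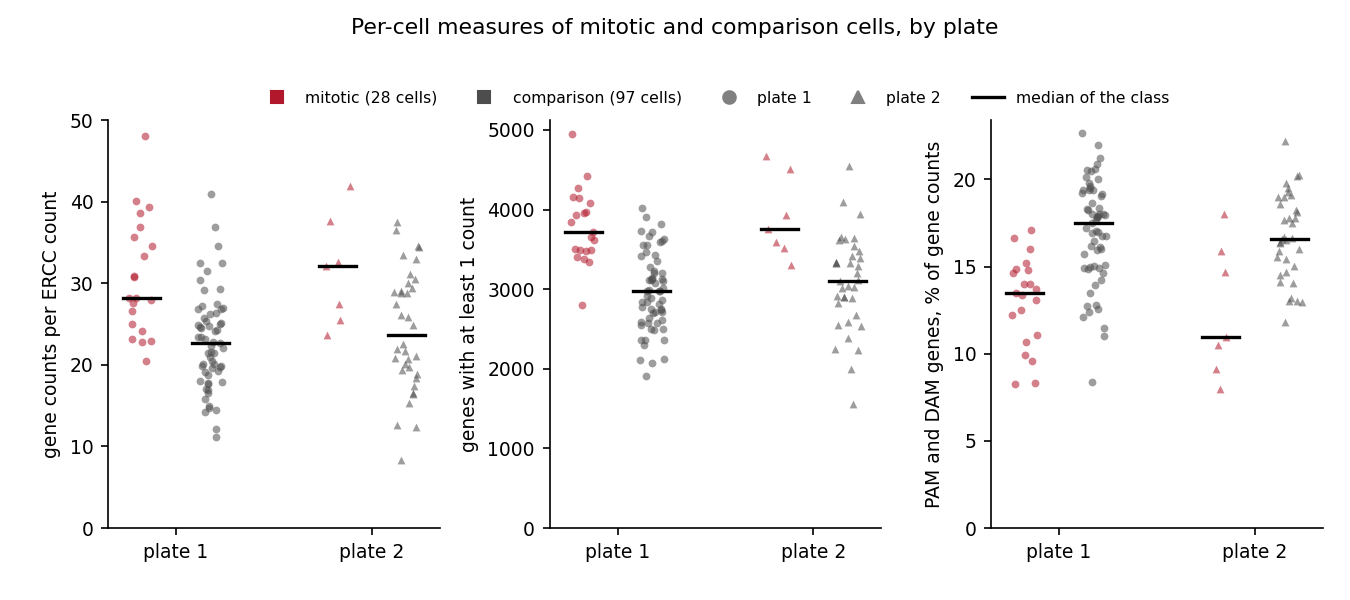
Gene counts per ERCC count, genes with at least 1 count, and the percent of gene counts in PAM and DAM genes for every cell, by plate; bars are medians of the class on that plate. Mitotic medians are higher for the first and second measures and lower for the third on both plates, with overlapping cells throughout.

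Identity as microglia was shared. Of 11 microglial markers, among them Csf1r, Cx3cr1, Fcrls, P2ry12 and Sall1, every mitotic and every comparison cell read 8 or more, with a median of 10 in both. Of 7 dendritic cell markers, 4 (Flt3, Clec9a, Ccr7 and Cd209a) were not read in either class. The 7 summed to a median of 174 CPM in mitotic cells (0 to 815) and 107.1 CPM in comparison cells (0 to 2885), largely through Siglech, a lectin that microglia also express and that is on the homeostatic list, which was read in 25 of 28 mitotic and 60 of 97 comparison cells (log2 0.61, plate 1 0.29, plate 2 1.47). Among markers of other cells, no T or NK cell gene was read in either class, and the border macrophage markers Cd163, Lyve1 and Cd209f, the monocyte markers Ly6c2 and Plac8, and the oligodendrocyte precursor markers Pdgfra, Olig1 and Olig2 were at 0 in every cell of both classes. The 10 border macrophage markers summed to 17.6 to 2173 CPM in mitotic cells (median 610) and 0 to 3727 CPM in comparison cells (median 720), through Mrc1, Folr2 and Stab1, which microglia can also express. Cspg4, Cd79b and Cnp, markers of precursors, B cells and oligodendrocytes, were read in 6, 11 and 11 mitotic cells (15, 35 and 33 comparison cells) while the defining partners Pdgfra, Cd79a and Mog were not read. S100a4, a monocyte list gene that other cells also use, was read in 6 mitotic and 4 comparison cells.

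Outside the cell cycle, 6868 genes were compared, meaning that they had a pooled level of at least 10 CPM and a count in at least 10% of the compared cells. Of these, 530 (7.72%) met the size rule upward and 560 (8.15%) downward, with a median log2 ratio of 0.03. The filter pooled both classes, so a gene with few comparison reads could pass it through mitotic cells in which it was high. The same holds in reverse for lower genes. Most of the calls were among thinly read genes: of the 2099 genes with a count in at least 50% of the compared cells, 55 (2.62%) were higher and 43 (2.05%) lower. The direction was the same on both plates for 1378 of these 2099 genes. Scaling to ERCC counts in place of gene counts moved the median of all compared genes from 0.06 to 0.47, so under that scaling a value below about 0.47 lies below the typical gene.

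PAM and DAM genes took a smaller share of the RNA of mitotic cells. The 30 genes of the list together held 13.4% of gene counts at the mitotic median (7.98 to 18.04%) and 17.03% at the comparison median (8.37 to 22.7%). The mitotic share was below the comparison median of its plate in all 21 mitotic cells of plate 1 and in 6 of 7 on plate 2, and 9 of 61 and 0 of 36 comparison cells were below the mitotic median of their plate. Counting only genes outside the cell cycle the shares were 14.3 and 17.3%, and without Spp1 and Apoe they were 6.90 and 8.35%.

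Gene by gene the shift was small and mostly one way. The list had a median log2 ratio of -0.36 (plate 1 -0.39, plate 2 -0.41), 28 of 30 genes were below 0, and 24 were below 0 on both plates. By the size rule 1 gene was higher (3.33% of the list) and 4 were lower (13.3%), beside 7.72% and 8.15% of all genes outside the cell cycle. Scaled to ERCC counts the median was -0.01, so these genes had about equal counts per spike-in in both classes while the typical gene had more in mitotic cells. Against the 30 comparison cells whose gene counts per ERCC count lay inside the quartiles of the mitotic cells of their plate, the median was -0.46.

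Spp1, which encodes the secreted phosphoprotein osteopontin (chr5:104435118-104441050, plus strand, GRCm38), had a median of 33193 CPM over mitotic cells and 50392 CPM over comparison cells. Its mitotic values ran from 2.70 to 72387 CPM, 1 cell being nearly without it, and 4 of 28 mitotic cells were above the comparison median. The pooled log2 ratio was -0.52, with -0.51 on each plate.
Apoe, the main lipid carrier of the brain (chr7:19696109-19699188, minus strand), had medians of 24828 and 34939 CPM and a log2 ratio of -0.54, and 6 mitotic cells were above the comparison median. Igf1, a growth factor for myelinating cells, had medians of 608 CPM (165 to 1457) and 1220 CPM (53.8 to 3214), a log2 ratio of -0.94, and 2 mitotic cells above the comparison median. None of these met the size rule, and for each the ranges of the 2 classes overlapped.

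The gene of the gate protein Gpnmb, a transmembrane glycoprotein of lysosomes and the cell surface, read a median of 2363 CPM in mitotic cells and 3970 CPM in comparison cells, with a log2 ratio of -0.76. For Clec7a, the beta-glucan receptor dectin-1, the medians were 188 and 343 CPM and the log2 ratio -0.93. Both classes had passed the same protein gate, and 20 of 28 mitotic and 84 of 97 comparison cells held a Clec7a read.

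The 4 lower members were Itgax, Mamdc2, Axl and Gpx3. Itgax, the CD11c integrin chain, was read in 10 of 28 mitotic cells (35.7%, exact interval 18.6 to 55.9%) and 56 of 97 comparison cells (57.7%, 47.3 to 67.7%), with pooled levels of 58.4 and 241 CPM and a log2 ratio of -2.03. Gpx3, a secreted glutathione peroxidase, was the best read of them, with medians of 412 and 711 CPM, a log2 ratio of -1.09 and 4 mitotic cells above the comparison median. Axl, a receptor for apoptotic cells, and Mamdc2 were read in 5 and 4 mitotic cells, so their ratios rest on few cells. Cst7, a cysteine protease inhibitor, was the member that was higher (log2 1.15), read in 11 of 28 and 17 of 97 cells, and the value against cells of like RNA content was 0.49. At the other end of the list the lipoprotein lipase gene Lpl (log2 -0.10) and the tetraspanin gene Cd9 (-0.10) had nearly equal pooled levels.

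Homeostatic genes had no common direction. The list held 2.62% of gene counts at the mitotic median and 2.66% at the comparison median, and its 27 compared genes had a median log2 ratio of 0.01 on both plates together (0.01 on plate 1, -0.28 on plate 2), with 14 above 0 and 13 below. Cx3cr1, the fractalkine receptor, had medians of 3205 and 3451 CPM and a log2 ratio of 0.01. Fcrls, an Fc receptor-like protein of mouse microglia, had medians of 3355 and 3356 CPM and also 0.01, with -0.40 on plate 2. Tmem119, a microglial membrane protein, was the 1 member that met the size rule upward (log2 1.21, read in 12 of 28 and 18 of 97 cells), and none met it downward. Among all compared genes outside the cell cycle 7.72% met it upward and 8.15% downward. P2ry12, the ADP receptor of microglial processes, had a log2 ratio of 0.34 and 1.05 against cells of like RNA content. The growth factor receptor Csf1r had a log2 ratio of -0.38 (0.09 when scaled to ERCC counts), and Trem2, a lipid-sensing receptor, -0.41 (0.04).

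**Figure D3:**
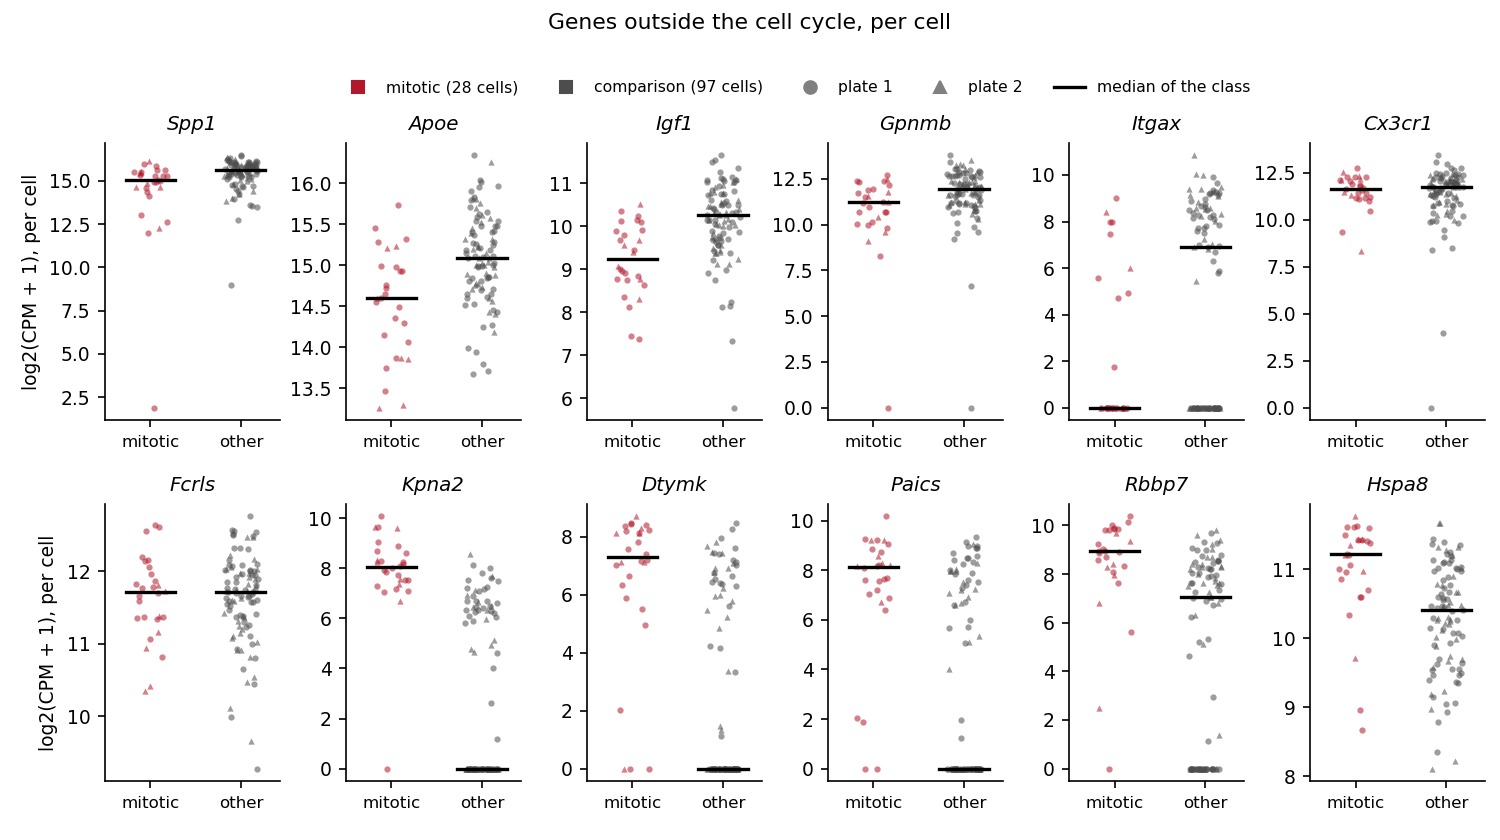
Levels of 12 genes outside the cell cycle in every mitotic cell and every comparison cell (marked other), as log2(CPM + 1) with a separate vertical scale for each gene; bars are medians. Spp1, Apoe, Igf1, Gpnmb and Itgax have lower mitotic medians, Cx3cr1 and Fcrls have nearly equal ones, and Kpna2, Dtymk, Paics, Rbbp7 and Hspa8 have higher ones.

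Lysosomal genes lay slightly lower as a group. Of 49 compared, 42 were below 0 with a median log2 ratio of -0.20 (plate 1 -0.29, plate 2 -0.26), which was 0.19 when scaled to ERCC counts. Their share of gene counts was 9.87% at the mitotic median and 11.3% at the comparison median, and 25 of 28 mitotic cells were below the latter. The size rule was met by 2 members, both downward (4.08% of the list, beside 8.15% of all genes outside the cell cycle). Atp6v0d2, a proton pump subunit of the macrophage lysosome, was one of them (log2 -1.47), read in 7 of 28 and 51 of 97 cells. Ctsc, the cathepsin that activates serine proteases, was among the 7 above 0, with medians of 1536 and 1217 CPM and a log2 ratio of 0.37.

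The lipid handling list, which shares Apoe, Lpl, Plin2 and Fabp5 with the PAM and DAM list, had a median of -0.38 over 23 compared genes (0.01 scaled to ERCC counts), with 20 below 0. The cholesterol exporters Abca1 and Abcg1 had log2 ratios of -0.68 and -0.44, and the lysosomal lipase Lipa -0.58. Acsl1, a fatty acid activating enzyme, was the 1 member that met the size rule, upward (log2 1.58, read in 28.6% and 12.4% of cells). For 28 phagocytosis and receptor genes the median was -0.18 (0.24 scaled to ERCC counts), with 1 higher, the scavenger receptor Msr1 (log2 1.16), and 4 lower, Fcgr2b, Cd300a, Axl and Scarb1. For both lists the counts stand beside 7.72% higher and 8.15% lower among all compared genes outside the cell cycle.

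Genes that supply growth and division stood higher, among them the nucleotide enzymes. Of all compared genes outside the cell cycle 7.72% met the size rule upward and 8.15% downward. Of 24 compared nucleotide synthesis genes 12 met the size rule upward (50.0%) and none downward, and 22 were above 0, with a median log2 ratio of 0.98 (plate 1 0.80, plate 2 1.05), 1.33 scaled to ERCC counts and 0.77 against cells of like RNA content. They held 0.290% of gene counts at the mitotic median (0.0803 to 0.512%) and 0.151% at the comparison median (0.0564 to 0.357%), and 26 of 28 mitotic cells were above the latter. Over the 7 members read in at least 50% of the compared cells the median was 0.51. Against the 53 comparison cells with 6 or more S phase genes the list median was 0.68, and that of the nuclear transport list was 0.77. Several nucleotide enzymes are known to rise in S phase. Whether S phase accounts for their higher levels here was not tested.

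Dtymk, the thymidylate kinase (chr1:93792576-93801934, minus strand), had a median of 157 CPM over mitotic cells (0 to 417) and 0 over comparison cells (0 to 357), and was read in 25 of 28 against 39 of 97. Its log2 ratio was 2.12, with 2.02 on plate 1 and 2.40 on plate 2. Dck, which salvages deoxycytidine, was read in 16 mitotic and 10 comparison cells (log2 2.68), and Paics, a purine synthesis enzyme, in 26 and 44 (log2 1.50). Cad and Umps, which make the pyrimidine ring and uridine monophosphate, had log2 ratios of 2.32 and 1.68. The best-read member, the nucleoside diphosphate kinase Nme1, had medians of 542 and 335 CPM and a log2 ratio of 0.51, with 26 mitotic cells above the comparison median. The nucleoside transporter Slc29a1, not on the list, was read in all 28 mitotic cells and had medians of 397 and 154 CPM (log2 1.07).

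Nuclear transport followed closely. Of 30 compared importins, exportins, nucleoporins and regulators 9 were higher (30.0%) and 1 lower (3.33%), with a median of 0.89 (plate 1 0.79, plate 2 1.03) and 0.61 against cells of like RNA content. Of all compared genes outside the cell cycle 7.72% were higher and 8.15% lower. The 6 well-read members of the nuclear transport list had a median of 0.65. The list's share was above the comparison median in all 28 mitotic cells, with 3 of 97 comparison cells above the mitotic median. Kpna2, importin alpha-1, whose promoter is printed above (gene at chr11:106988629-106999541, minus strand), had a median of 262 CPM (0 to 1082) and 0 CPM (0 to 384), and was read in 27 of 28 mitotic and 44 of 97 comparison cells. Its log2 ratio was 2.73, with 3.29 on plate 2 and 2.28 against cells of like RNA content, and 27 mitotic cells were above the comparison median. The nucleoporins Nup62 and Nup85 were each read in 22 mitotic cells, with log2 ratios of 2.07 and 1.91, and Cse1l, the exporter that recycles importin alpha, had 1.91. Rcc1, the chromatin-bound exchange factor of Ran, was read in 13 and 4 cells (log2 3.58), and so passed the read filter only through its mitotic cells. The lower member was Kpna3 (log2 -1.60), another importin alpha. Kpna2, Rcc1 and several nucleoporins also act at the spindle or kinetochore, although they were in none of the cell cycle lists.

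RNA processing genes were broadly above 0: 43 of 48, with 9 higher (18.8%), none lower and a median of 0.46 (plate 1 0.42, plate 2 0.87), or 0.58 over the 34 well-read members. Of all compared genes outside the cell cycle 7.72% were higher and 8.15% lower, and of the well-read ones 2.62% and 2.05%. The spliceosomal proteins Snrpe (medians 94.6 and 39.6 CPM, log2 1.33) and Snrpd1 (log2 1.30) and the RNA helicase gene Ddx39 (current symbol Ddx39a, medians 299 and 120 CPM, log2 1.04) were among the 9. All 22 compared cytosolic chaperonins and chaperones were above 0, 15 of them on both plates, with 4 higher (18.2%): Ahsa1, Hsp90aa1, Hspa4 and Stip1. Their median was 0.39 (plate 1 0.33, plate 2 0.79). It was 0.20 against cells of like RNA content and 0.18 against comparison cells with 6 or more S phase genes. The constitutive chaperone Hspa8 had medians of 2374 CPM (408 to 3486) and 1366 CPM (276 to 3258), a log2 ratio of 0.65, and 24 mitotic cells above the comparison median. Ribosome biogenesis genes had a median of 0.48 with 6 of 26 higher (23.1%) and 1 lower, but 0.05 against cells of like RNA content. Nop56, a core protein of box C/D ribonucleoproteins, was the best read of the 6 (medians 225 and 0 CPM, log2 1.42).

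Housekeeping machinery differed little. Cytosolic ribosomal protein genes had a median of 0.11 over 77 compared, oxidative phosphorylation 0.15 over 75, glycolysis 0.06 over 18 and the proteasome 0.30 over 40. Among these 4 lists 1 gene, of the proteasome, met the size rule upward and none downward. Of all well-read genes outside the cell cycle 2.62% met it upward and 2.05% downward. Of the 13 cholesterol synthesis genes 12 were above 0, with a median of 0.30 that was 0.20 on plate 1 and 0.92 on plate 2. Only 3 of the 13 were above 0 on both plates and 1 was below 0 on both, and 1 was well read. Acat2, the cytosolic thiolase, was higher (log2 2.28, read in 16 of 28 and 13 of 97 cells), and Nsdhl, a sterol dehydrogenase, was read in no mitotic cell and in 13 comparison cells.

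**Figure D4:**
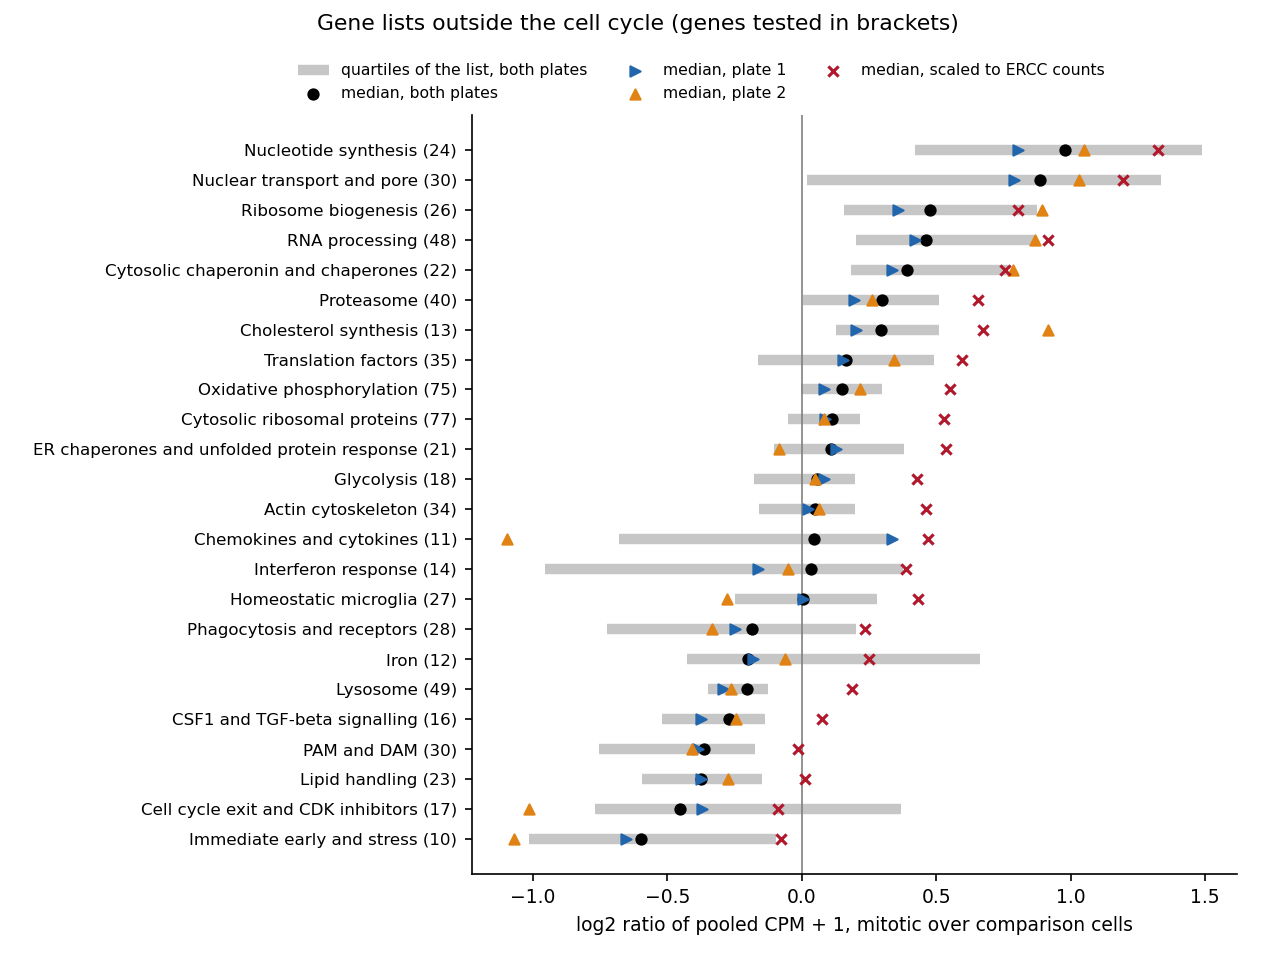
Log2 ratio of pooled CPM + 1 for each list outside the cell cycle with at least 10 compared genes: median over both plates with the quartiles of the list, median on each plate, and median when scaled to ERCC counts. Nucleotide synthesis and nuclear transport lie highest at 0.98 and 0.89, while ERCC scaling moves each list to the right and takes the lysosome, phagocytosis, iron, CSF1 and TGF-beta and lipid medians from below to above 0.

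Among the 55 well-read genes that were higher, chosen after their values were seen, several carry or package chromatin. Rbbp7, a histone chaperone subunit, had medians of 486 and 132.8 CPM (log2 1.47), Nap1l1, a nucleosome assembly protein, 106.5 and 17.8 CPM (1.58), and Ssrp1, a subunit of the FACT complex, 107.7 and 6.07 CPM (1.35). Sae1, which activates SUMO, and Nudc, a dynein regulator needed for cytokinesis, were read in all 28 mitotic cells, with log2 ratios of 1.44 and 1.39. Phgdh, the entry enzyme of serine synthesis, had medians of 302 and 37.7 CPM (log2 1.35), and Tagln2, an actin-binding protein, 188 and 0 CPM (1.50).

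The 43 well-read lower genes, also chosen after their values were seen, included membrane, lysosome and metabolic genes. Furin, the proprotein convertase, had the lowest ratio (log2 -3.49), with counts in 7 of 28 and 56 of 97 cells, pooled levels of 2.49 and 38.3 CPM, and -3.80 against cells of like RNA content. Idh1, the cytosolic isocitrate dehydrogenase, had medians of 2.19 and 207 CPM (log2 -1.64, plate 1 -1.32, plate 2 -2.82), with 3 mitotic cells above the comparison median. Acot2, a mitochondrial acyl-CoA thioesterase, had -2.28. Sqstm1, the autophagy receptor p62, had medians of 97.4 and 232 CPM (log2 -1.24), and Flcn, a regulator of lysosomal signalling to mTORC1, 0 and 134.1 CPM (-1.30). Both the purinergic channel P2rx4 and the inhibitory receptor Cd300a were near the limit, at -1.07 and -1.06. Fam20c, the secretory kinase that phosphorylates osteopontin, had a log2 ratio of -1.11 and was read in 11 of 28 and 56 of 97 cells.

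Of the compared genes outside the cell cycle lists, the 15 with the highest ratios that kept their direction against cells of like RNA content and did not rest on 1 cell were mostly sparse. E130306D19Rik (current symbol Arhgef39), a guanine nucleotide exchange factor, headed them at 4.97, with 6.57 on plate 1 and 1.35 on plate 2, and counts in 13 mitotic and 2 comparison cells. Hirip3, a histone-binding protein, followed at 3.91 (16 and 1 cells). Both E130306D19Rik and Hirip3 passed the read filter only through their mitotic cells. Dnajc9, a histone H3 co-chaperone, was the most often read after Kpna2, in 24 mitotic and 19 comparison cells, with medians of 216 and 0 CPM and a log2 ratio of 2.89, and Slc43a3, a purine base transporter, was read in 21 and 12 cells (log2 2.97). At the other end, the 15 lowest genes were read in at most 2 of 28 mitotic cells and in 12.4 to 19.6% of comparison cells. They include Eef2k, Daxx and Cdk16, and their fitted ratios, from -3.90 to -4.94, rest on a handful of mitotic counts.

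Immediate early and stress genes respond within minutes to stimulation or handling. Apart from the marker lists of other cell types, they had the lowest median of the lists outside the cell cycle. It was -0.60 over 10 genes (plate 1 -0.65, plate 2 -1.07, and -0.08 scaled to ERCC counts). By the size rule 2 of the 10 were lower (20.0%, beside 8.15% of all genes outside the cell cycle) and none higher. Among the marker lists, border macrophage genes had a median of -0.80 over 5 compared genes (plate 1 -0.78, plate 2 -0.98), and astrocyte genes -1.53 over 1. Atf3 (log2 -2.71) and Zfp36 (-2.64), a transcription factor and an mRNA-decay protein, were each read in 6 of 28 mitotic cells, against 28 and 31 of 97 comparison cells. Of the 10 genes 9 were below 0, but 4 were below 0 on both plates. The 2 well-read members had a median of -0.38. The 17 genes of cell cycle exit and CDK inhibition had a median of -0.45 (plate 1 -0.37, plate 2 -1.01, and -0.09 scaled to ERCC counts), with 11 below 0, and their 5 well-read members -0.74. Of these 17, Ypel3 was lower (log2 -1.37) and E2f4, which represses cell cycle genes in resting cells, was higher (1.098). Cdkn1a, the p21 inhibitor, had a log2 ratio of 0.48 and was read in 21 of 28 mitotic cells and 43 of 97 comparison cells.

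The number of rule genes in a cell gave a graded view. Relative to the 72 cells with none of the 8, PAM and DAM genes had a median log2 ratio of -0.03 in the 25 cells with 1, -0.27 in the 18 with 2 or 3, -0.43 in the 8 with 4 to 6 and -0.38 in the 20 with 7 or 8. Nuclear transport went from 0.05 through 0.40 and 0.54 to 0.83, and S phase genes from 0.70 through 1.49 and 2.89 to 2.67. Homeostatic genes stayed between -0.06 and 0.03. These 4 classes share the same reference cells and were cut on the rule genes, so the order is a description.

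**Figure D5:**
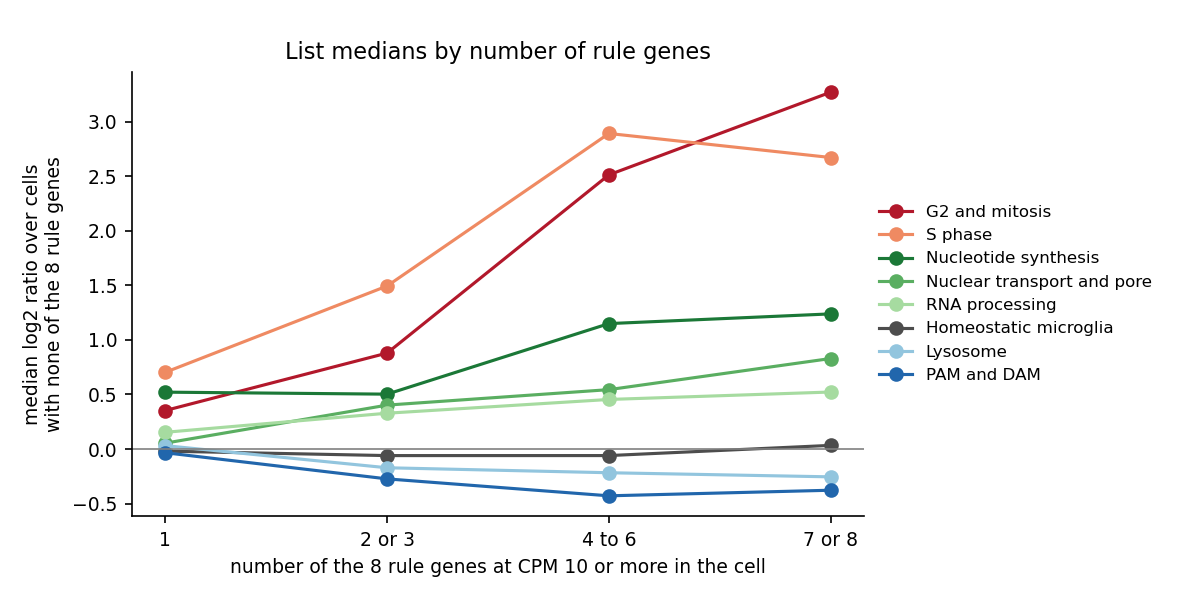
Median log2 ratio of 8 gene lists in cells with 1, 2 or 3, 4 to 6, and 7 or 8 of the rule genes at 10 CPM, each against the 72 cells with none. In cells with 7 or 8 the S phase list is at 2.67 and the G2 and mitosis list at 3.27, the PAM and DAM list is at -0.38, and the homeostatic list at 0.03.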

How the data were processed

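Smart-seq2 libraries of 143 sorted cells were analysed as whole-number counts per gene and per ERCC spike-in, deposited by the authors in 1 table with no normalization. Tools listed in the submitters' processing notes were STAR 2.5.3a, HTSeq, Picard and Trim Galore 0.4.3, with mm10 as the build. Their order and settings, the annotation and the strand setting are not given in the sources used here, so overlapping and antisense genes are uncertain. The column sums equalled the label totals for all 143 cells. The kit has no molecular identifiers, so PCR copies count as reads, and levels are not divided by gene length, so they are not compared between genes.

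CPM was taken over gene rows without ERCC. Counts were summed over the cells of a class, and log2 ratios were taken of pooled CPM + 1 with Python 3.11.15, numpy 2.4.6 and pandas 2.3.3. The ratio and size rule were checked on data with known answers. That check gives no rate of false calls among the thinly read genes of these data, where most of the calls lie. No test was run, because all cells come from 1 pool. Shares of cells have exact Clopper-Pearson intervals (scipy 1.17.1). Genes were outside the cell cycle when their symbol, or its current RefSeq symbol, was in no cell cycle list and matched no cell cycle name pattern: 20756 of 23337 symbols were current, 2331 matched through 1 synonym and 250 had no match. Gene positions are from GENCODE M21 (GRCm38).

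Named genes are the rule genes, the PAM and DAM and homeostatic lists, up to 4 best-read members of each other list, the 15 highest and 15 lowest outside genes, 15 cell cycle genes and markers of other cells read in 20% of mitotic cells. Other members are named to account for counts, and some members counted in the lists are not reported here by name. The cells, lists and rules were chosen with earlier results of these data known. Added after seeing the data were the well-read genes, the matching of current symbols, the ribosomal protein name pattern and the comparison with S phase-positive cells. Alternatives covered the pseudocount, low-count filter, scaling, Rn45s, class limits, comparison cells, thinning, plates and the highest cell. The per-cell totals are those of the deposited counts, from 372188 to 968247 in mitotic cells.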

Additional observations from a re-analysis of the deposited data

How the results depend on the processing

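The number of mitotic cells was 25 to 30 under each limit tried. The ratio of gene counts per ERCC count was 1.24 to 1.36 over the planned settings that set no limit on S phase genes. Against comparison cells with 6 or more and at most 3 S phase genes, that ratio was 1.15 and 1.52, and the ratio of genes detected 1.14 and 1.45. The first of these 2 comparisons was added after seeing the data. The count of genes outside the cell cycle that were higher, 530, was 286 with a pseudocount of 10, 936 with no filter on low genes, 1169 scaled to ERCC counts, 1145 against cells with at most 3 S phase genes, 1148 on plate 2 alone and 55 among genes read in at least 50% of the cells. The count of lower genes, 560, was 295 with a pseudocount of 10, 1365 with no filter, 285 scaled to ERCC counts, 1477 on plate 2 alone, 1057 without the cell with the highest level of each gene in each class, and 43 among well-read genes. Without the cell with the highest level of each gene in each class, the count of higher genes was 390. That setting removes 1 cell of 28 from the mitotic class but 1 of 97 from the comparison class. The stricter pseudocount and read filter remove sparse genes by construction, and plate 2 has 7 mitotic cells. For the other settings the cause was not tested. Of the 530 higher genes 335, and of the 560 lower genes 303, were also called against cells of like RNA content. Scaled to ERCC counts, list medians went from below to above 0 for lysosome (0.19), phagocytosis (0.24), complement (0.21), MHC class I (0.25), iron (0.25), lipid handling (0.011) and CSF1 and TGF-beta (0.074). Under at least 1 other setting the sign also changed for the homeostatic, glycolysis, ER chaperone, actin, chemokine, interferon, MHC class II and iron lists. A130010J15Rik (0.37) and AA960436 (0.082) were above 0 against cells with at most 3 S phase genes. No paired analysis was possible because all cells form 1 group from 1 pool and replicate numbers only name cells. A gene read in few of the 28 mitotic cells has a ratio set by those cells, and zero counts in a cell do not show that a gene is absent.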

Other observations

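The 18 cells with 2 or 3 of the rule genes, left out of both classes, are given here as values. Their median was 26.2 gene counts per ERCC count (12.9 to 42.7), and PAM and DAM genes held 14.8% of their gene counts (7.53 to 19.6%). Their S phase list median was 1.49 on the log2 scale over cells with none of the 8, against 0.88 for G2 and mitosis genes. Lists without a clear direction in mitotic cells were the interferon response (median log2 ratio 0.03 over 14 compared genes, 1 higher and 3 lower), chemokines and cytokines (0.05 over 11, but 0.33 on plate 1 and -1.10 on plate 2), the actin cytoskeleton (0.05 over 34) and iron genes (-0.20 over 12, 0.25 scaled to ERCC counts). Of all compared genes outside the cell cycle 7.72% were higher and 8.15% lower. Complement genes had -0.20 over 7 compared genes (0.21 scaled to ERCC counts), and signalling genes of CSF1 and TGF-beta had -0.27 over 16, with Irf8 (-0.62) and Tgfbr2 (-0.69) below 0, Runx1 (0.87) above 0 and none meeting the size rule.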
